A study of Mus musculus with 6 samples.

Results

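The genes of fatty acid synthesis, triglyceride assembly and lipid droplet storage were compared between livers of mice with and without Igfbp7, the gene for a secreted binding protein of insulin-like growth factors. The 37 genes were chosen by symbol from their known roles, out of 22609 genes in the count files, and all 37 were found. The series holds 6 RNA-seq libraries of adult liver: 3 from wild type C57BL/6 mice and 3 from mice labelled IGFBP7 knock-out, made by a Cre-loxP strategy on a pure C57BL/6 background. The sources used here give no Cre driver, deleted exons, sex, age in weeks, feeding state or time of collection, and do not say whether each library is a separate animal. The p-values therefore measure the spread between these libraries, which may be partly technical.

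Liver builds fatty acids from citrate. Acly splits citrate to acetyl-CoA, the acetyl-CoA carboxylases Acaca and Acacb turn that into malonyl-CoA, and Fasn assembles the chain with reducing power from enzymes such as Me1. Elongases and desaturases then lengthen the chains and add double bonds, and Gpam, the Agpat enzymes, the lipins and the Dgat enzymes join them to glycerol. The product leaves in lipoproteins or is stored in droplets coated by perilipins and Cide proteins. Insulin acts on this pathway through Srebf1 and dietary carbohydrate through Mlxipl, also called ChREBP, and the pathway is known to follow feeding and the daily clock.

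Depth ran from 16712568 to 22419411 gene counts per library. Igfbp7 stood at 76.4, 79.7 and 60.9 CPM (read counts scaled to a common library size) in wild type libraries 1 to 3 and at 0.237, 0.109 and 0.442 CPM in knockout libraries 1 to 3. The 12 hepatocyte markers, Alb and Apoa1 among them, were all detected, at a summed level of 121296 to 141499 CPM across wild type and 128474 to 154919 CPM across knockout libraries. Wild type library 1 stood apart in its clock genes: Arntl, a core clock activator, was at 17.6 CPM there and between 1.91 and 2.85 CPM elsewhere, and Dbp, a clock output gene, at 10.2 against 51.0 to 78.8 CPM.

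The lipid synthesis and storage genes had no common direction in the knockout livers. Of the 37 genes, 34 had enough counts to be tested, 17 with higher and 17 with lower fitted levels in the knockout, and the median log2 fold change was -0.0033, beside 0.0013 over all 12522 tested genes. By edgeR's quasi-likelihood test 0 of the 34 passed an adjusted p of 0.05 (Benjamini-Hochberg over all tested genes), where 27 of all tested genes, or 0.216%, did (0.128% higher and 0.0878% lower in the knockout). Without adjustment 5 of the 34, or 14.7%, had p under 0.05, near the 15.4% of all tested genes. These were Dgat2, Mlxipl and Cidec, higher in the knockout as were 8.1% of all tested genes, and Elovl3 and Agpat2, lower as were 7.35%. DESeq2 called 2 of them, Dgat2 and Mlxipl, at an adjusted p of 0.05, beside 438 of 12032 genes, or 3.64% (1.91% higher in the knockout). The 3 knockout values lay entirely above the wild type values in 3 members and entirely below in 1, together 11.8% of the 34, beside 20.7% of all tested genes (10.7% above and 10.1% below).

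**Figure D1:**
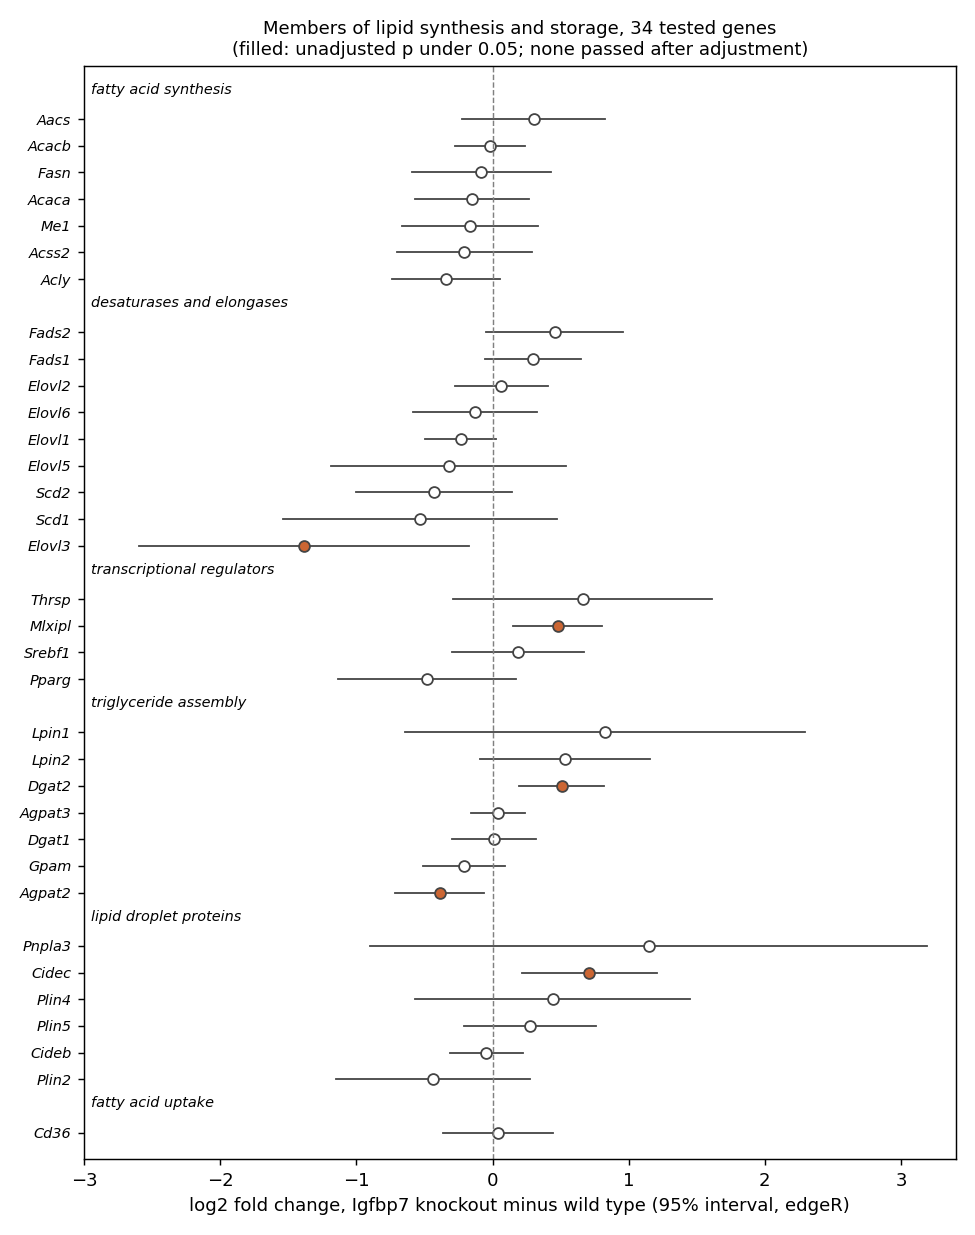
Log2 fold change of each of the 34 tested members (horizontal axis, knockout minus wild type, from edgeR), grouped by role on the vertical axis, with bars for the 95% interval. The intervals of 29 members include 0, and the 5 filled points mark Dgat2, Mlxipl, Cidec, Elovl3 and Agpat2, with an unadjusted p under 0.05.

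Most of these genes varied between libraries more than the typical tested gene. Their median absolute log2 fold change was 0.31, beside 0.15 over all tested genes, and their median biological coefficient of variation between libraries of a genotype was 0.195, beside 0.131. In 21 of the 34 the edgeR dispersion lay above the 75th percentile of all tested genes. In 32 of the 34 the ratio of the highest to the lowest library of a genotype was larger than the ratio of the genotype means, the exceptions being Dgat2 and Cidec. The lipin gene Lpin1 ranged 5.30-fold within wild type and 5.15-fold within knockout livers, and the desaturase gene Scd1 2.66-fold and 2.95-fold.

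None of the enzymes that make fatty acids from citrate and acetate passed the test. Of the 7, 6 had lower and 1 a higher fitted level in the knockout, at a median log2 fold change of -0.15, and 0 had an unadjusted p under 0.05 by edgeR. Acly had the lowest p of the 7, with 402, 425 and 366 CPM in wild type libraries 1 to 3 and 325, 231 and 387 CPM in knockout libraries 1 to 3. Knockout libraries 1 and 2 lay below the wild type range and library 3 within it. The log2 fold change was -0.34 ± 0.17 (SE; edgeR adjusted p = 0.398). Fasn, the fatty acid synthase, stood at 677, 673 and 734 CPM in wild type and at 583, 463 and 925 CPM in knockout libraries, values described after they were seen. The knockout libraries lay on both sides of a narrow wild type range. Its log2 fold change of -0.08 had a 95% interval of -0.59 to 0.43, which leaves room for changes of up to those sizes.

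Acacb, the carboxylase isoform whose malonyl-CoA restrains fatty acid oxidation, had the smallest log2 fold change of the 7, -0.02, at 94.6 ± 14.0 CPM (wild type) and 93.4 ± 4.14 CPM (knockout; SD, n = 3 each). Acaca, the isoform that feeds synthesis, averaged 46.0 CPM without and 41.4 CPM with the knockout, and the malic enzyme Me1 115 and 103 CPM. Acss2, which activates acetate, averaged 266 ± 76.3 and 230 ± 46.1 CPM (SD, n = 3 each). Aacs, which activates acetoacetate for lipid synthesis, was the 1 enzyme with a higher fitted level, at a log2 fold change of 0.30 ± 0.23 (SE; edgeR adjusted p = 0.582). Each of these differences was smaller than the spread between libraries of a genotype.

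Among desaturases and elongases the levels diverged by gene, with 6 of 9 fitted lower and 3 higher in the knockout. Elovl3, an elongase of saturated and monounsaturated very long chains, was the 1 with an unadjusted p under 0.05. It stood at 735, 267 and 219 CPM in wild type libraries 1 to 3 and at 273, 94.7 and 100 CPM in knockout libraries 1 to 3. The highest value was that of wild type library 1, and knockout library 1 lay at the level of wild type library 2, so the groups overlapped. This gave a log2 fold change of -1.38 ± 0.53 (SE; edgeR adjusted p = 0.266), and -0.64 (adjusted p = 0.666) without wild type library 1. Elovl3 shares 10 exon bases with Pitx3 on the opposite strand in GENCODE M21.

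Scd1, which makes oleate and palmitoleate from saturated chains, stood at 7340, 8124 and 3056 CPM in wild type and at 4909, 2009 and 5916 CPM in knockout libraries. It and the following genes of this paragraph were described after their values were seen. Wild type library 3 and knockout library 2 were the low ones, and the same libraries were lowest for Elovl5, which extends polyunsaturated chains, at 245 and 185 CPM, with 381 to 554 CPM elsewhere. The log2 fold change of Scd1 was -0.53 ± 0.44 (SE; edgeR adjusted p = 0.621), and -0.19 without knockout library 2. Fads1 and Fads2, the desaturases of polyunsaturated fatty acids, had higher means in the knockout, 715 against 582 CPM and 549 against 401 CPM. Their highest values, 856 and 731 CPM, were both in knockout library 1. Neither passed (edgeR adjusted p = 0.399 and adjusted p = 0.378). The remaining members had log2 fold changes of -0.43 for Scd2, -0.23 for Elovl1, -0.13 for Elovl6, the elongase of palmitate, and 0.06 for Elovl2, which extends long polyunsaturated chains.

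Of the regulators, Mlxipl was higher in every knockout library than in any wild type library. Mlxipl is a glucose-responsive transcription factor, and it stood at 268, 221 and 332 CPM in wild type and at 391, 369 and 383 CPM in knockout libraries. The knockout libraries lay close together and the wild type libraries were more spread. Its log2 fold change was 0.48 ± 0.14 (SE; edgeR adjusted p = 0.175; DESeq2 adjusted p = 0.0493), and it stayed between 0.34 and 0.64 in every alternative fit, among them that without wild type library 1 (0.46). The sequences before its start sites are shown because it was the regulator that DESeq2 called. RefSeq (assembly GRCm38.p6) gives Mlxipl 2 start sites on the plus strand of chromosome 5, and the 250 bases before each are printed 5′ to 3′ with motif matches in capitals.
Mlxipl, chr5:135089640-135089889: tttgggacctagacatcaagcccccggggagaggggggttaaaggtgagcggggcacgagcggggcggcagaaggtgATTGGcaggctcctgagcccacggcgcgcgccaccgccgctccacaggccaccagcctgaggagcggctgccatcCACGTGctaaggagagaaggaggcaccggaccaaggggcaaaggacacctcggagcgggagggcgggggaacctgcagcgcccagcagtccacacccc
Mlxipl, chr5:135106641-135106890: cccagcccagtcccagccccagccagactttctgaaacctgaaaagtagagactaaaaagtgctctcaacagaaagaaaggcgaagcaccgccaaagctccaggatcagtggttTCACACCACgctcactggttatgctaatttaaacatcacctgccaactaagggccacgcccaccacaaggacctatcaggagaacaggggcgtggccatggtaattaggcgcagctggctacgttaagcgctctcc

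The capitals in the upstream window mark ATTGG, the reverse of the CCAAT box bound by NF-Y, and the E-box CACGTG, and those in the downstream window a sterol regulatory element TCACNCCAC. The table held 43 windows for 30 of the 37 members, and 5 motifs were searched on both strands. Dgat2, Elovl3, Scd1, Scd2, Fads1, Dgat1 and Cidea had no window. The windows of Agpat2 and Cidec held none of the 5 motifs. CCAAT was in 20 of the 43 windows (46.5%) and in 33.8% of all 32851 windows of the same length, CACGTG in 4 (9.3%) and in 6.02%, and TCACNCCAC in 1 (2.33%) and in 1.05%. The E-box windows belonged to Mlxipl, Elovl5, Lpin2 and Pnpla5. The direct repeats AGGTCANAGGTCA and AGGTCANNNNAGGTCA, which share their half-site, were in 0 of the 43 windows and in 0.0335% and 0.0152% of all windows. No motif match shared bases with a match of another motif in the Mlxipl windows. These matches describe letters and show no binding.

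Srebf1, the insulin-responsive regulator of the pathway, stood at 332, 431 and 384 CPM in wild type and at 371, 335 and 599 CPM in knockout libraries. Apart from the high value of knockout library 3 the groups shared 1 range, and the log2 fold change was 0.19 ± 0.21 (SE; edgeR adjusted p = 0.731). The files do not separate its isoforms. Thrsp, also called Spot 14, a nuclear protein that accompanies lipogenesis, stood at 275, 592 and 692 CPM in wild type and at 434, 742 and 1293 CPM in knockout libraries. Wild type library 1 was the lowest and knockout library 3 the highest, and the groups overlapped. Its log2 fold change was 0.66 ± 0.42 (SE; edgeR adjusted p = 0.497), 0.36 without wild type library 1 and 0.18 without knockout library 3. Pparg, a receptor that promotes fat storage, was scarce, at 10.9, 8.84 and 4.44 CPM in wild type and 6.44, 5.19 and 5.74 CPM in knockout libraries, with a log2 fold change of -0.48 ± 0.29 (SE; edgeR adjusted p = 0.473), and of -0.21 without wild type library 1.

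**Figure D2:**
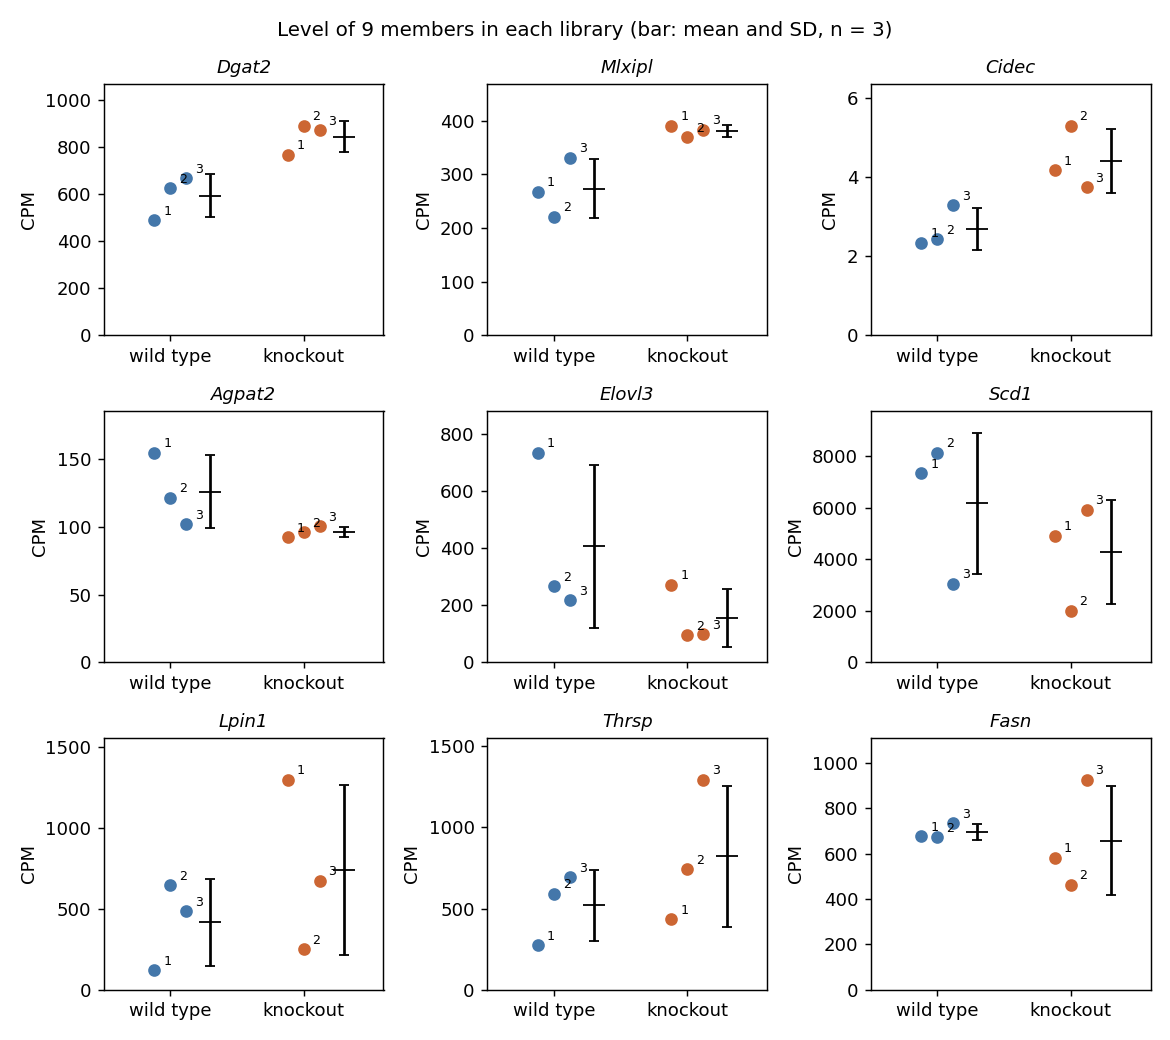
CPM of 9 members (vertical axes from 0) in the 3 wild type and 3 knockout libraries, numbered by replicate, with the mean and SD of each genotype beside the points. Dgat2, Mlxipl and Cidec do not overlap between genotypes, Agpat2 is separated by under 2 CPM, and the other 5 overlap.

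Triglyceride assembly held the member with the lowest p of the whole list. Dgat2, which adds the last acyl chain and prefers newly made fatty acids, stood at 491, 626 and 668 CPM in wild type and at 769, 893 and 873 CPM in knockout libraries. The groups did not overlap, and wild type library 1 was the lowest. The log2 fold change was 0.51 ± 0.14 (SE, 95% interval 0.19 to 0.82; edgeR adjusted p = 0.145; DESeq2 adjusted p = 0.0174), and 0.39 (adjusted p = 0.358) without wild type library 1. Dgat1, the isoenzyme that re-esterifies fatty acids taken up or released from stores, differed by less, with 21.7 ± 2.99 and 21.9 ± 2.80 CPM (SD, n = 3 each) and a 95% interval of the log2 fold change from -0.30 to 0.32. The difference between the isoenzymes was not tested.

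Agpat2, which makes phosphatidic acid, stood at 155, 122 and 102 CPM in wild type and at 92.7, 96.1 and 100.5 CPM in knockout libraries. All knockout values were below all wild type values, but wild type library 3 lay within 2 CPM of knockout library 3. The log2 fold change was -0.39 ± 0.14 (SE; edgeR adjusted p = 0.246), and -0.22 (adjusted p = 0.548) without wild type library 1. Agpat2 shares 64 exon bases with the endothelial gene Egfl7 on the opposite strand in GENCODE M21. For the strand setting of the counting, no value is given in the sources used here. Agpat3, of the same family, averaged 252 ± 12.6 and 259 ± 8.36 CPM (SD, n = 3 each), and it had the narrowest interval of all members, from -0.16 to 0.24. Gpam, the entry enzyme of glycerolipid synthesis, had means of 231 and 200 CPM (edgeR adjusted p = 0.493).

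The lipins, phosphatidic acid phosphatases that also act as transcriptional coregulators, were the most variable enzymes of this group. Lpin1 stood at 122, 645 and 486 CPM in wild type and at 1296, 252 and 673 CPM in knockout libraries, values described after they were seen. Wild type library 1 and knockout library 2 were low and knockout library 1 high, so that the log2 fold change of 0.83 ± 0.65 (SE; edgeR adjusted p = 0.596) ranged from 0.15 to 1.28 as single libraries were left out. Lpin2 was also highest in knockout library 1, where it reached 696 CPM while the other 5 ran from 243 to 409 CPM (edgeR adjusted p = 0.396). Mogat1, an acyltransferase of the monoacylglycerol route, gathered 11, 10 and 2 counts across wild type libraries, 3, 0 and 4 across knockout libraries, and was not tested.

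Of the lipid droplet genes, Cidec was higher in every knockout library. Cidec, whose protein fuses droplets into larger ones, stood at 2.34, 2.43 and 3.29 CPM in wild type and at 4.17, 5.29 and 3.73 CPM in knockout libraries. The nearest values of the groups were those of wild type library 3 and knockout library 3. Fitted, the log2 fold change was 0.71 ± 0.22 (SE; edgeR adjusted p = 0.180; DESeq2 adjusted p = 0.127), and 0.62 (adjusted p = 0.427) without wild type library 1. Cideb, the family member of hepatocytes that serves lipoprotein lipidation, averaged 81.3 ± 3.71 and 78.7 ± 11.9 CPM (SD, n = 3 each), and it shares 1136 exon bases with Nop9 on the opposite strand in GENCODE M21. Cidea, the member of brown fat, had 0 to 2 counts in every library and was not tested.

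Plin2, the main droplet coat protein of liver, stood at 617, 425 and 303 CPM in wild type and at 410, 389 and 196 CPM in knockout libraries, described after the values were seen. The lowest value was that of knockout library 3 and the highest that of wild type library 1, and the log2 fold change was -0.44 ± 0.31 (SE; edgeR adjusted p = 0.557). It was -0.14 without wild type library 1 and -0.17 without knockout library 3. Plin5, which ties droplets to mitochondria, held to 47.0 to 49.7 CPM in wild type libraries and spread from 37.7 to 75.1 CPM in knockout libraries. Plin4 ranged from 2.51 to 9.92 CPM, with both ends in knockout libraries. Pnpla3, a droplet hydrolase gene induced by carbohydrate feeding, gathered 42, 10 and 12 counts across wild type libraries and 18, 10 and 123 across knockout libraries. Knockout library 3 alone set it apart: the log2 fold change was 1.15 with all libraries (edgeR adjusted p = 0.596) and -0.66 without that library. The related gene Pnpla5 gathered 10, 2 and 1 counts across wild type libraries, 0, 2 and 0 across knockout libraries, and was not tested.

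Cd36, a fatty acid translocase of hepatocytes, macrophages and endothelium, stood at 42.3, 40.0 and 40.1 CPM in wild type and at 30.7, 41.9 and 53.5 CPM in knockout libraries. The knockout livers lay on both sides of a tight wild type range, with a log2 fold change of 0.04 ± 0.18 (SE; edgeR adjusted p = 0.939). In whole liver, fewer cells of a type and less RNA per cell cannot be told apart. Of 12 markers of Kupffer cells and macrophages 11 had lower levels in the knockout, each with an unadjusted p under 0.05, as had 7.35% of all tested genes. By edgeR 0 passed the adjusted threshold and by DESeq2 9 did, where DESeq2 called 3.64% of all genes. The other marker, Cd163, had a log2 fold change of 0.31 (edgeR adjusted p = 0.676). The summed level of the 12 ran from 710 to 791 CPM across wild type and from 377 to 605 CPM across knockout libraries, and 0 of the 12 were at 0. Cd36 and Pparg are also expressed by macrophages, and the part of these cells in their values was not tested. Of 9 adipocyte markers, Retn and Ucp1 had 0 counts in every library, and Adipoq, Lep, Plin1 and Cfd stayed at or under 0.213 CPM. The summed adipocyte list, at 15.8 to 17.3 CPM in wild type and 18.3 to 23.4 CPM in knockout libraries, consisted almost wholly of Fabp4 and Adrb3. Fabp4 had a log2 fold change of -0.06 (edgeR adjusted p = 0.924). That of Adrb3 was 0.91 (edgeR adjusted p = 0.0837; DESeq2 adjusted p = 0.00251). Markers of liver endothelium, stellate cells and cholangiocytes had median log2 fold changes of -0.11, -0.11 and -0.34 (12, 12 and 6 tested). By edgeR 0 passed the adjusted threshold, and 1, 0 and 1 had an unadjusted p under 0.05, beside 15.4% of all tested genes. DESeq2 called 0, 0 and 1, beside 3.64% of all genes.

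**Figure D3:**
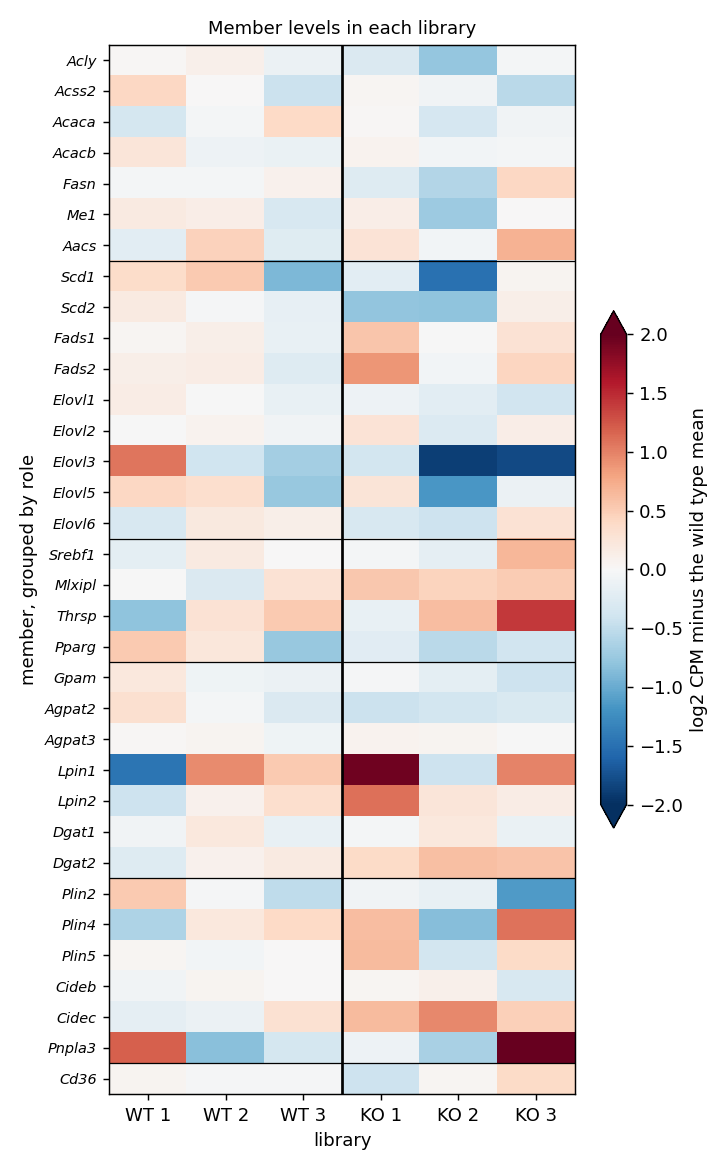
Log2 CPM of the 34 tested members (rows, grouped by role) in each library (columns), as the difference from the wild type mean, with colours ending at 2 in either direction. Knockout library 2 is low in many synthesis and desaturation genes, and Lpin1, Elovl3 and Pnpla3 differ among libraries of the same genotype.

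Some libraries stood at an end of their genotype's range in many members at once. Knockout library 2 was the lowest of its genotype in 21 of 34 members (61.8%, against 33.8% of all tested genes), and wild type library 3 in 19 (55.9%, against 36.5%). Knockout library 1 was the highest of its genotype in 18 (52.9%, against 32.2%). These shares are descriptions, since genes of a pathway are not independent. Knockout library 2 also had the most alignments at several positions per gene count, 2.65 against 1.49 to 2.13 elsewhere. The part of this in the members' levels was not tested. By role, the mean log2 difference from wild type in knockout libraries 1 to 3 was 0.02, -0.70 and -0.11 for desaturases and elongases and 0.43, 0.02 and 0.12 for triglyceride assembly. Within wild type it ran from -0.33 in library 3 to 0.22 in library 1 for desaturases and elongases, and knockout library 2 lay outside that range. For triglyceride assembly wild type ran from -0.24 in library 1 to 0.18 in library 2, and knockout library 1 lay outside that range. That mean rested largely on Lpin1 (1.94) and Lpin2 (1.10). The median difference of the same group in knockout library 1 was 0.077, within the wild type medians of -0.082 to 0.086.

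Counts at an unadjusted p under 0.05 followed the libraries used. Without knockout library 2 there were 7 of 34 members (20.6%, against 13.4% of all genes tested in that fit), and without wild type library 1 there were 3 (8.82%, against 10.9%), namely Mlxipl, Dgat2 and Cidec. Without both there were 8 (23.5%, against 9.83%): Fads1, Fads2, Mlxipl, Lpin1, Dgat2, Plin4, Plin5 and Pnpla3, all with higher fitted levels in the knockout, and 0 of them passed after adjustment. That fit has 2 libraries a genotype. Knockout library 2 was the lowest of its genotype in 21 of 34 members, and leaving it out raises their knockout means. The shared direction therefore depends in part on that choice. Without knockout library 3 there were 9 (26.5%, against 15.4%), with lower fitted levels in the knockout for Acly, Fasn, Scd2, Elovl6 and Agpat2 and higher ones for Mlxipl, Lpin2, Dgat2 and Cidec. Mlxipl and Dgat2 were in each of these counts.

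The libraries differed in their clock genes, which bears on genes that cycle daily. A clock score, the mean log2 CPM of 10 evening-phase genes such as Dbp and Per3 minus that of 5 morning-phase genes such as Arntl and Npas2, took the values -0.33, 2.42 and 2.93 across wild type and 3.17, 3.78 and 3.55 across knockout libraries. The genotypes did not overlap in it. Per3, Gm129 and Bhlhe41, repressors of the clock, and the output regulator Tef had log2 fold changes of 1.94, 2.35, 1.13 and 0.82. Those of the morning-phase genes Clock, Npas2 and Arntl were -0.61, -2.93 and -1.72. The other 2 morning-phase genes, Nfil3 and Cry1, went the other way, at 0.07 and 0.16. Of the 15 clock genes 0 passed the adjusted threshold by edgeR and 2 by DESeq2. An unadjusted p under 0.05 was found for 9 of the 15, and for 15.4% of all tested genes. Without wild type library 1 these log2 fold changes were 1.52 for Per3, 1.83 for Gm129, 0.75 for Bhlhe41 and 0.52 for Tef. For Clock, Npas2 and Arntl they were -0.44, -1.36 and -0.17, and for Nfil3 and Cry1 0.44 and 0.40. Elovl3, high where the score was low, and Dgat2 and Thrsp, low in wild type library 1, are set against it in the plot of level by clock score. With the score as a covariate 0 of 34 members had an unadjusted p under 0.05 (7.37% of all tested genes), and the log2 fold changes were 0.26 for Dgat2, 0.42 for Mlxipl, 0.49 for Cidec, -0.13 for Elovl3 and -0.08 for Agpat2. The score separates the genotypes, so these 6 libraries give little basis for telling genotype and clock phase apart.

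**Figure D4:**
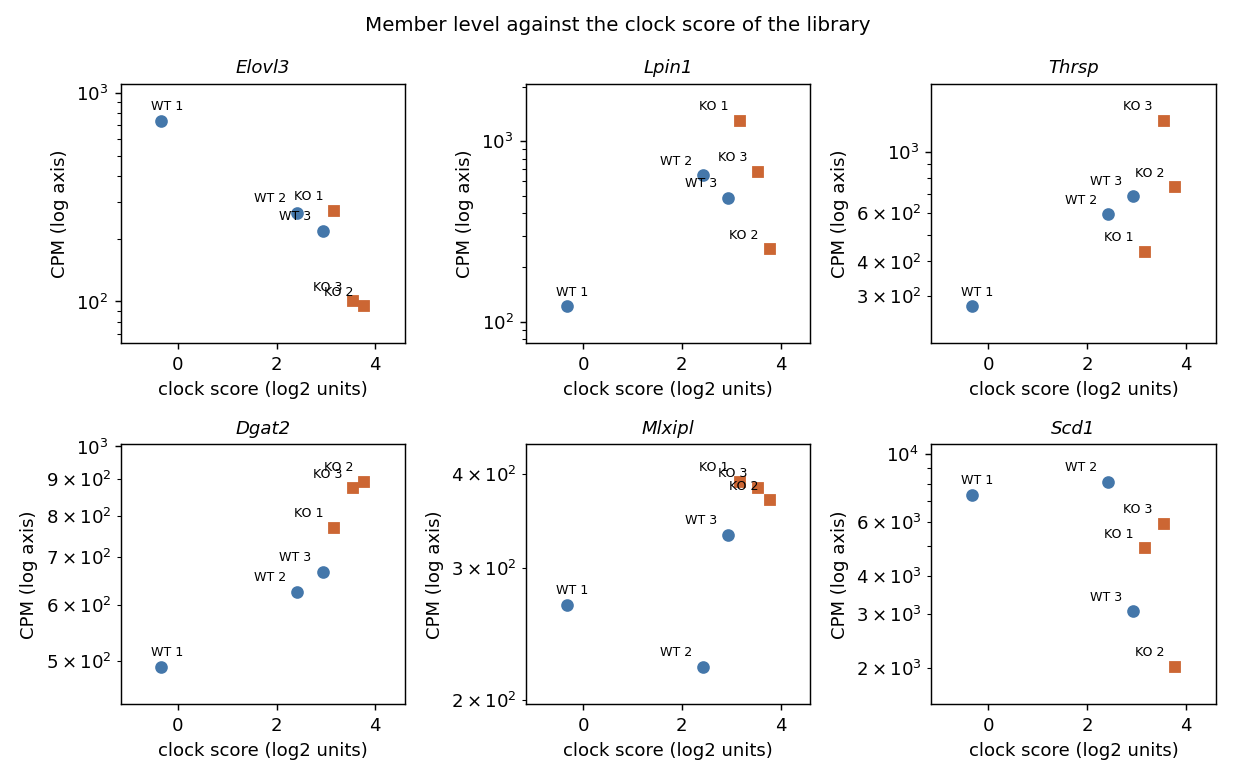
CPM on a log axis against the clock score of each library for 6 members, with circles for wild type and squares for knockout libraries. Wild type library 1 lies alone at a score of -0.33, where Elovl3 is at its highest and Lpin1, Thrsp and Dgat2 at their lowest, and the other 5 libraries lie between 2.42 and 3.78.

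Lipid synthesis genes are known to respond to feeding, so genes induced by fasting were read beside them. Of 18 such genes 16 had higher fitted levels in the knockout, at a median log2 fold change of 0.43. By edgeR 0 passed the adjusted threshold, where 0.216% of all tested genes did, and by DESeq2 2 did, where 3.64% did. Without adjustment 6, or 33.3%, had an edgeR p under 0.05, against 15.4% of all tested genes. Of these 5 had higher levels and 1 a lower level, beside 8.1% and 7.35% of all tested genes. The shift was uneven: the median log2 difference of the list from the wild type mean reached 0.67 in knockout library 1. Knockout library 3 was at 0.20, and knockout library 2 at 0.15, the same as wild type library 2. Wild type library 3 was at 0.0045 and wild type library 1 lowest, at -0.18. Cpt1a, the gate of mitochondrial fatty acid oxidation, had a log2 fold change of 0.48 (edgeR adjusted p = 0.134), the vanin gene Vnn1 0.54 (adjusted p = 0.255) and the fatty acid hydroxylase gene Cyp4a14 3.08 (adjusted p = 0.196), the last with 329 CPM in knockout library 3 against 8.88 to 76.7 CPM elsewhere. G6pc, the last enzyme of glucose release, was the 1 with a lower level at an unadjusted p under 0.05, at -0.48 (adjusted p = 0.144). The genotypes did not overlap in 22.2% of the list, beside 20.7% of all tested genes. These were 2 genes with higher levels, Cpt1a and Vnn1, and 2 with lower levels, G6pc and Pdk4. The log2 fold change of Pdk4 was -0.54 (edgeR adjusted p = 0.373). The part of feeding state in the members' levels was not tested.

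Around the members, 6 further lists covered 88 genes of control, substrate supply, chain modification, glycerolipid enzymes, droplet turnover and uptake. Of 82 tested, 18, or 22%, had an unadjusted p under 0.05, against 15.4% of all tested genes. Of the 18, 12 had higher and 6 lower levels, beside 8.1% and 7.35% of all tested genes. After adjustment by edgeR 2 of the 82 passed, Lpl lower and G0s2 higher, where 0.216% of all tested genes did. The lists were chosen with earlier results of these data known, so their shares here and below are descriptions only. Regulators of Srebf1 processing and its partners were the quietest list, with 1 of 15 (6.67%) at p under 0.05. That gene was Insig2, an anchor that retains SREBP proteins in the endoplasmic reticulum, at 441, 230 and 146 CPM in wild type and 167, 148 and 85.1 CPM in knockout libraries (edgeR adjusted p = 0.252). Its highest value was again in wild type library 1, and its log2 fold change was -1.03 with and -0.50 without that library. Of the 12 genes of substrate and NADPH supply, Me2, the mitochondrial malic enzyme, and Pgd, of the pentose phosphate pathway, had lower levels, 2.37 against 4.77 CPM (edgeR adjusted p = 0.0901) and 35.0 against 47.9 CPM (adjusted p = 0.225), and 10 had an unadjusted p over 0.05.

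Of the 6 lists, droplet turnover had the most separated genes, 5 higher and 1 lower of 16 tested with no overlap between genotypes (37.5%, against 20.7% of all tested genes). G0s2, an inhibitor of the triglyceride lipase Pnpla2, stood at 20.6, 10.3 and 15.2 CPM in wild type and 58.3, 52.7 and 59.9 CPM in knockout libraries (edgeR adjusted p = 0.0256). Its log2 fold change of 1.90 stayed between 1.67 and 2.17 as single libraries were left out, and the adjusted p was 0.0537, 0.0723 and 0.0523 without knockout library 1, 2 and 3 in turn (edgeR adjusted p). Fitted together with the clock score, G0s2 had a log2 fold change of 2.30 and was not called either (edgeR adjusted p = 0.0695). That fit called 1 of all 12522 tested genes, so the loss of a call there is not particular to G0s2. Abhd5, the activator of the same lipase, stood at 59.8, 59.3 and 68.5 CPM and 45.4, 52.0 and 43.2 CPM (edgeR adjusted p = 0.131; DESeq2 adjusted p = 0.0469). Pnpla2 itself had means of 87.1 and 116 CPM, with overlapping groups (edgeR adjusted p = 0.228). The hydrolase genes Lipe and Ces1d had higher levels at log2 fold changes of 0.69 (edgeR adjusted p = 0.122) and 0.44 (adjusted p = 0.114), called by DESeq2 at adjusted p of 0.0143 and 0.00276 and by edgeR at neither.

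Among the remaining lists, Lpl, which releases fatty acids from circulating triglyceride, stood at 44.3, 42.7 and 39.5 CPM in wild type and at 22.1, 20.96 and 23.7 CPM in knockout libraries. The log2 fold change was -0.92 ± 0.10 (SE; edgeR adjusted p = 0.0233), between -0.97 and -0.88 as single libraries were left out, and the adjusted p was above 0.05 without wild type library 1 (adjusted p = 0.0656), wild type library 2 (adjusted p = 0.0837) or knockout library 2 (adjusted p = 0.0723). With the clock score as a covariate the log2 fold change was -0.85 and the call was also lost (edgeR adjusted p = 0.219). That fit called 1 of all tested genes. Markers of Kupffer cells and macrophages had a median log2 fold change of -0.67 in the same libraries, and the part of these cells in the level of Lpl was not tested. Fabp5, a fatty acid carrier also found in macrophages and endothelium, averaged 23.9 CPM without and 11.9 CPM with the knockout (edgeR adjusted p = 0.0933, DESeq2 adjusted p = 0.000857), and the transport genes Slc27a1 and Slc27a2 had log2 fold changes of 0.56 (adjusted p = 0.138) and 0.40 (adjusted p = 0.240). Of 13 tested chain-modifying genes Fads3, a desaturase-like gene beside Fads1 and Fads2, had a log2 fold change of 0.84 (edgeR adjusted p = 0.122; DESeq2 adjusted p = 0.00551) and the acyl-CoA synthetase gene Acsl1 at 0.36 (adjusted p = 0.290). Of 13 further glycerolipid enzymes Agpat1 had a log2 fold change of 0.63 (adjusted p = 0.201), Chpt1 at 0.30 (adjusted p = 0.232) and Pcyt2, of phosphatidylethanolamine synthesis, at 0.29 (adjusted p = 0.314).

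Levels can be set between members only per length, and were divided by the exon length of each gene in GENCODE M21. Scd1 was the most abundant, at 1262 ± 558 CPM per kilobase in wild type and 874 ± 415 in knockout livers (SD, n = 3 each). In wild type livers Thrsp (237), Elovl2 (206), Elovl3 (206) and Dgat2 (193) followed, all in CPM per kilobase. Elovl2 had an SD of 10.4 and Elovl3 one of 144, so the order of these 4 does not hold beyond their spread. In knockout livers the means of Thrsp (376 ± 199) and Dgat2 (274 ± 21.6) came before that of Elovl2 (216 ± 40.8). Elovl3 stood at 78.9 ± 51.2 CPM per kilobase (SD, n = 3 each). The place of Thrsp in this order does not hold beyond its spread. Fasn was at 63.5 in wild type and 60.0 in knockout livers and Acaca at 2.69 and 2.42 CPM per kilobase, though transcript choice within the long Acaca gene affects its exon length. Dgat2 exceeded Dgat1, at 7.09 and 7.16 CPM per kilobase, in both genotypes.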

How the data were processed

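Liver RNA was sequenced in 6 libraries, 3 wild type and 3 IGFBP7 knock-out. The authors deposited read counts per gene symbol, raw whole numbers, made with CASAVA 1.8.2, TopHat2 2.0.8b and HTSeq per the submitters' processing notes, which list both mm9 and hg19 as builds. For annotation and strand setting, nothing is given in the sources used here. Rows that name no gene were left out (reads outside genes, 9.65% to 12.5% of uniquely placed reads). Reads placed at several positions are not in the counts, so close relatives such as the Scd genes can be counted low.

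Counts were tested with edgeR 4.0.16 (R 4.3.3, limma 3.58.1): filterByExpr with a minimum count of 10, TMM scaling, a quasi-likelihood fit with genotype as the only term, and 2-sided p-values adjusted by Benjamini-Hochberg over 12522 genes. Standard errors come from the F statistic, and CPM from TMM-adjusted library sizes of the tested genes. log2 CPM used a prior count of 2. Alternatives were 3 other scalings, 2 other filters, DESeq2 1.42.0, limma-voom, robust estimation, a replicate block, a clock score covariate and libraries left out. The test was checked on simulated counts.

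The members and lists were chosen with earlier results of these data known. Values per library are given for members with an unadjusted p under 0.05, members whose genotypes do not overlap, the lowest p of each role and 4 regulators, and others are said to be described after their values were seen. From each further list, genes past the threshold and up to 4 with the lowest unadjusted p under 0.05 are named. Promoters (RefSeq, GRCm38.p6) and exon lengths and overlaps (GENCODE M21, GRCm38) come from another build than mm9 and were matched by symbol.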

Additional observations from a re-analysis of the deposited data

How the results depend on the processing

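The 0 members past the adjusted threshold became 2 with DESeq2 and were 0 in the other 16 alternatives. DESeq2 called 438 genes in all, against 27 by edgeR. At an unadjusted p under 0.05 there were 5 members with all libraries (14.7%, against 15.4% of all tested genes). The count was 8 with the replicate block (23.5%, against 14.4%) and 0 with the clock score (against 7.37%). It was 8 without wild type library 1 and knockout library 2 together (23.5%, against 9.83%), and 3 to 9 with 1 library left out. Those were 3 without wild type library 1 (8.82%, against 10.9%) and 8 without wild type library 3 (23.5%, against 15%). Without knockout library 3 there were 9 (26.5%, against 15.4%). The median log2 fold change was 0.12 without both libraries, of which knockout library 2 was the lowest of its genotype in most members, and -0.082 to 0.039 with 1 left out. The 2 further pathway genes past the threshold became 8 with DESeq2, 0 with the replicate block (edgeR adjusted p = 0.0539 for G0s2 and adjusted p = 0.0585 for Lpl), 0 with the clock score, 0 without both libraries and 0 to 2 with 1 left out. The fits with the replicate block, with the clock score and without both libraries each called 1 gene in all. Pathway genes past the threshold were 1 without wild type library 1 or 2 or knockout library 1 or 3, and 0 without knockout library 2. The cause was not tested; fits with fewer libraries have fewer samples.

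Replicate numbers do not pair the libraries: deviations from the genotype means correlated at -0.083, -0.098 and -0.041 for the numbers 1 to 3, so the block adds only a shared number.

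Of the 34 tested members, 18 kept their direction in all 17 alternatives. The other 16, none past the threshold, changed sign somewhere. With upper-quartile and total-count scaling, which move the median of all genes to -0.042 and -0.046, Agpat3 was at -0.0043 and -0.0079 and Dgat1 at -0.031 and -0.035. With the clock score Acss2 was at 0.23, Acacb 0.21, Me1 0.091, Elovl5 0.20, Thrsp -0.045, Pparg 0.079, Dgat1 -0.048 and Plin2 0.11. Without both libraries Acacb was at 0.13, Fasn 0.098, Me1 0.15, Elovl5 0.18 and Dgat1 -0.13. With 1 library left out the ranges were -0.39 to 0.024 for Acss2, -0.31 to 0.070 for Acaca, -0.085 to 0.11 for Acacb, -0.41 to 0.12 for Fasn, -0.33 to 0.056 for Me1, -0.055 to 0.21 for Elovl2, -0.11 to 0.35 for Srebf1, -0.095 to 0.13 for Dgat1, -0.13 to 0.074 for Cideb, -0.66 to 2.11 for Pnpla3 and -0.17 to 0.23 for Cd36. Depth limits Pnpla3, Cidec and the 3 untested members, with few counts.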
